A study of Mus musculus with 2 samples.

Results

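The molecular chaperones described here are the heat shock proteins of the HSPA (HSP70), HSPB (small heat shock protein), HSPD/HSPE (mitochondrial chaperonin), HSPH (HSP110) and HSP90 families, the J-domain proteins (Dnaja, Dnajb and Dnajc genes) and the subunits of the cytosolic chaperonin TRiC. They were taken by a pattern of gene symbols, which gave 82 of the 23284 symbols in the files. The study asked how the adaptor protein STAP-1 affects leukemic stem cells in a mouse model of chronic myeloid leukemia. Bone marrow LSK cells (lineage-negative, Sca-1+, c-Kit+) of wild-type (WT) or STAP-1 knockout (KO) donors on a C57BL/6J background, 8 to 14 weeks old, were infected with a retrovirus carrying BCR-ABL and GFP and transplanted into irradiated C57BL/6SJL (Ly5.1) recipients. At 11 days after this first transplantation, GFP+ CD45.2+ LSK cells were sorted from the recipients and their RNA was sequenced. Both libraries therefore held BCR-ABL-transduced cells from a transplant, and only the STAP-1 genotype of the donor differed by design. Each genotype had 1 library (n = 1), so differences below were not checked in replicates and carry no p-value. Whether the cells of 1 library came from several mice is not given in the sources used here.

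Molecular chaperones bind unfolded or partly folded proteins and release them in cycles driven by ATP. HSP70 proteins are handed their substrates by J-domain proteins, HSP110 proteins help them exchange nucleotide, HSP90 acts on nearly folded clients that include many kinases, BCR-ABL among them, and TRiC encloses actin, tubulin and other proteins in a double-ring chamber. Many cytosolic chaperones have a constitutive form, made in all cells, and several have a stress-induced form, which the transcription factor HSF1 switches on through heat shock elements, repeats of the unit GAA and its complement TTC, when unfolded proteins accumulate. The endoplasmic reticulum (ER) and the mitochondria have their own sets.

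The promoters of several members carry these elements, and some are shown because they are the sequence features through which stress-induced and ER chaperones are known to be switched on. RefSeq promoter windows (build GRCm38.p6, 250 bases before to 50 bases after the annotated start, both strands searched) were matched for 67 members. The 3-unit heat shock element GAANNTTCNNGAA was in the window of 4 members, Hspd1, Hspe1, Hsph1 and Dnajb6, and in 0.662% of all 27025 genes with a window. A shorter match of 2 units, GAANNTTC or TTCNNGAA, which every 3-unit match also contains, was found for 20 of the 67 members (29.9%) and for 17.0% of all genes. It was in the windows of 7 of the 8 stress-induced members that had one, against 2 of 6 constitutive cytosolic members and 3 of 7 TRiC subunits. The members of these 3 classes without a matched window were Hsp90aa1, Hsp90ab1, Hspa8, Dnajc2, Dnajc5 and Cct4. The ER stress element, CCAAT and CCACG with a gap of 9 bases, was in 0.137% of all genes and in 3 members, Hspa5, Hsp90b1 and Dnajc3, which all encode ER proteins. In the stretches below, read 5′ to 3′ on the strand of the gene, capitals mark the heat shock units or the ER stress element. The Hspe1 stretch at chr1:55088053-55088082 (plus strand) precedes the RefSeq start of Hspe1 and, on the other strand, the inner of the starts that RefSeq gives for Hspd1. It lies downstream of the outer Hspd1 start. This stretch and those of Dnajb6 and Hspa5 lie wholly within annotated exon bases, and 21 of the 86 bases of the Dnaja4 stretch do. The others are Dnajb6 at chr5:29735844-29735872 (plus), Hspa1a at chr17:34972233-34972280 (minus), Hspa1b at chr17:34959315-34959362 (minus), Dnaja4 at chr9:54699449-54699534 (plus), Dnajb4 at chr3:152193846-152193879 (minus), Hspa5 at chr2:34772020-34772048 (plus) and Dnajc3 at chr14:118937807-118937865 (plus). The Hspa1a and Hspa1b stretches are the same 48 bases.
Hspe1 and Hspd1: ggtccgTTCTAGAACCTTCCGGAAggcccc
Dnajb6: agctccgaGAATCTTCCGGAAcgctagac
Hspa1a: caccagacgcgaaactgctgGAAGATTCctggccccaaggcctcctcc
Hspa1b: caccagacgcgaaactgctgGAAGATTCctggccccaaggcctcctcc
Dnaja4: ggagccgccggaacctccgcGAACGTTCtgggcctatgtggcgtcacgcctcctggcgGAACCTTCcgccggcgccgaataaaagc
Dnajb4: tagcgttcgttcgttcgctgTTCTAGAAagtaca
Hspa5: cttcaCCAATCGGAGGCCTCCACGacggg
Dnajc3: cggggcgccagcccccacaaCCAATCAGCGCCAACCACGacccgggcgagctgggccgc

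Expression is given in FPKM, fragments counted per length of transcript and per depth of the library. Differences are log2 values of STAP-1 KO over WT with 0.1 FPKM added to each, which understates the change of low genes, and folds are plain ratios. A gene is called higher or lower past a 2-fold cut-off if each library reached 0.1 FPKM, and class medians cover genes whose mean over the libraries reached 1 FPKM. Stap1 itself was at 62.0 FPKM in WT and 0.309 FPKM in KO. The steps between low FPKM values corresponded to an effective depth of about 7490000 reads in WT and 10480000 in KO. The libraries also differed in cell type markers: all 5 LSK markers and all 8 mast cell and basophil markers had lower FPKM in KO, with summed levels of 1046 against 339 FPKM and 48570 against 4273 FPKM, and all 4 primary granule genes had higher FPKM, with 522 FPKM in WT and 4163 FPKM in KO. Of the genes for the sorted surface proteins, Kit was at 468 FPKM in WT and 30.1 FPKM in KO and Ly6a (Sca-1) at 285 and 106 FPKM, so neither was absent. Of the B cell genes, Cd79b was at 3.10 FPKM in WT and 17.8 FPKM in KO and Pax5 at 0 in both. The summed T cell markers were at 2.09 FPKM in WT and 2.37 FPKM in KO. The erythroid markers summed to 221 FPKM in WT and 558 FPKM in KO, with 2 of 4 higher, and the megakaryocyte markers to 187 and 111 FPKM, with 2 of 3 higher. In bulk RNA, fewer cells of a type and less RNA per cell cannot be told apart, and the part of these markers in the chaperone differences was not tested.

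Chaperone transcripts took a larger share of the KO library. The 82 members summed to 6638 FPKM in WT and 11066 FPKM in KO, or 1.02% and 1.83% of all FPKM. Of the members, 70 reached 0.1 FPKM in both libraries. Among these, 14 (20%) were at least 2-fold higher in KO, beside 12.3% of all 12507 genes compared, and 7 (10%) were at least 2-fold lower, beside 22.9% of all genes. The other 49 lay within the 2-fold cut-off. The median log2 difference was 0.49 over the 65 members whose mean reached 1 FPKM, with 48 above 0, while it was -0.04 over the 10974 genes at that level, of which 48.3% were above 0. Abundant genes lay higher: over the 1205 genes whose mean reached 100 FPKM the median was 0.35, with 63.2% above 0. J-domain proteins were 40 of the 70 members compared. Of these 40, 6 were lower, beside 22.9% of all genes, and 3 higher, beside 12.3%. They made up 6 of the 7 lower members and 3 of the 14 higher ones. After the correction for transcript length described with TRiC, 10 of the 70 were higher, beside 12.2% of all genes, and 8 lower, beside 19.7%. Of the 40 J-domain proteins, 4 were then higher and 7 lower.

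In WT the most abundant member transcripts per length were Hspa5 at 971 FPKM, Hsp90ab1 at 723 FPKM and Hsp90b1 at 428 FPKM. In KO the order was Hsp90ab1 at 1369 FPKM, Hspa5 at 1186 FPKM and the TRiC subunit Cct6a at 769 FPKM. The cytosolic HSP90 and a TRiC subunit thus ranked above ER chaperones that had preceded them in WT.

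**Figure D1:**
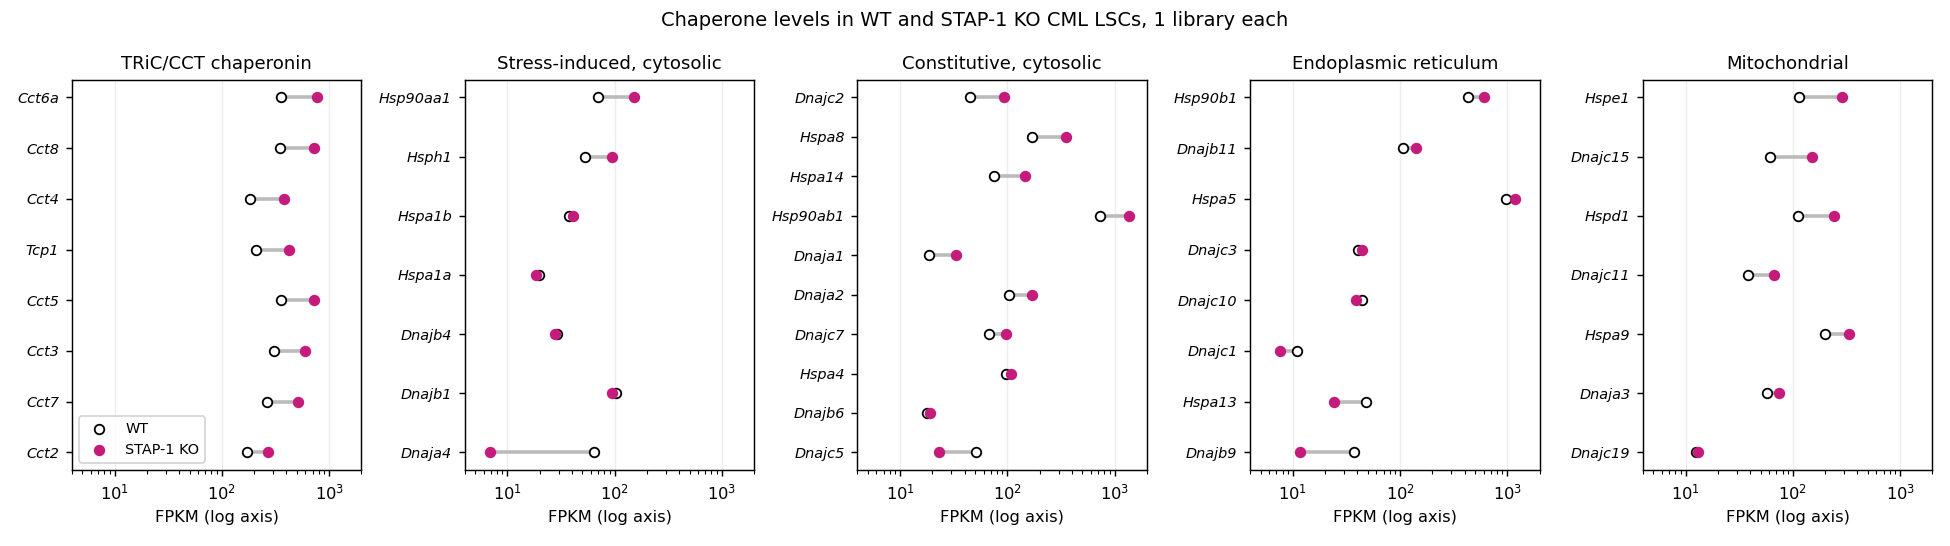
FPKM of each named chaperone in the WT and the STAP-1 KO library on a log axis, grouped by class, with 1 point per library. All 8 TRiC subunits lie to the right in KO, while Dnaja4 and Dnajb9 lie to the left, at 6.93 and 11.6 FPKM.

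TRiC, the cytosolic chaperonin, was the class with the most even difference. All 8 subunits had log2 differences above 0, and their summed level went from 2193 FPKM in WT to 4389 FPKM in KO, a ratio of 2.00. Tcp1, the alpha subunit, was at 208.6 FPKM in WT and 425.7 FPKM in KO. Cct6a was at 354 and 769 FPKM, the largest fold of the subunits at 2.17. Cct2 was at 172.6 and 268 FPKM, the smallest, with a log2 difference of 0.63. The other 5 subunits fell between log2 0.94 (Cct7, 265 and 509 FPKM) and 1.05 (Cct8, 346 and 717 FPKM), so that Cct2 stood alone below a narrow group. The class median was 1.03 with an SD of 0.15 over the 8 subunits, beside a median of 0.35 with quartiles of -0.43 and 0.79 over all genes whose mean reached 100 FPKM, a level that every subunit exceeded.

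The subunits assemble in equal numbers into each ring, yet their transcripts were not at equal levels. In WT they ranged from 172.6 to 354 FPKM, a 2.05-fold span with a coefficient of variation of 28.2%. In KO they ranged from 268 to 769 FPKM, a 2.87-fold span with a coefficient of variation of 33.3%. The spread was thus somewhat wider in KO, and Cct2 was the lowest subunit in both libraries. The genes lie on several chromosomes, among them Tcp1 on chromosome 17 (12915701 to 12925067), Cct6a on chromosome 5 (129786998 to 129846371) and Cct8 on chromosome 16 (87483326 to 87495873), all in GRCm38.

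Of the 8 subunits, 5 passed the 2-fold cut-off upward, beside 12.3% of all genes, and they did so narrowly. Cct5 at 2.04-fold, Tcp1 at 2.04-fold, Cct4 at 2.06-fold and Cct8 at 2.08-fold lay just inside, and Cct7 at 1.92-fold and Cct3 at 1.94-fold just outside. Shorter transcripts tended to be higher in KO. After the median difference of genes of like length was taken off, all 8 subunits stayed above 0 with a median of 0.87. They then spread more widely, from 0.24 for Cct2 and 0.62 for Cct5 to 1.03 for Cct7. Only 2, Tcp1 and Cct7, were past the cut-off, beside 12.2% of all genes. Tcp1 and Cct6a share exon bases with Mrpl18 and Psph, which were at 130 and 246 FPKM and at 18.9 and 43.0 FPKM in WT and KO, and the library preparation does not mark strand, so reads in the shared stretches cannot be told apart.

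**Figure D2:**
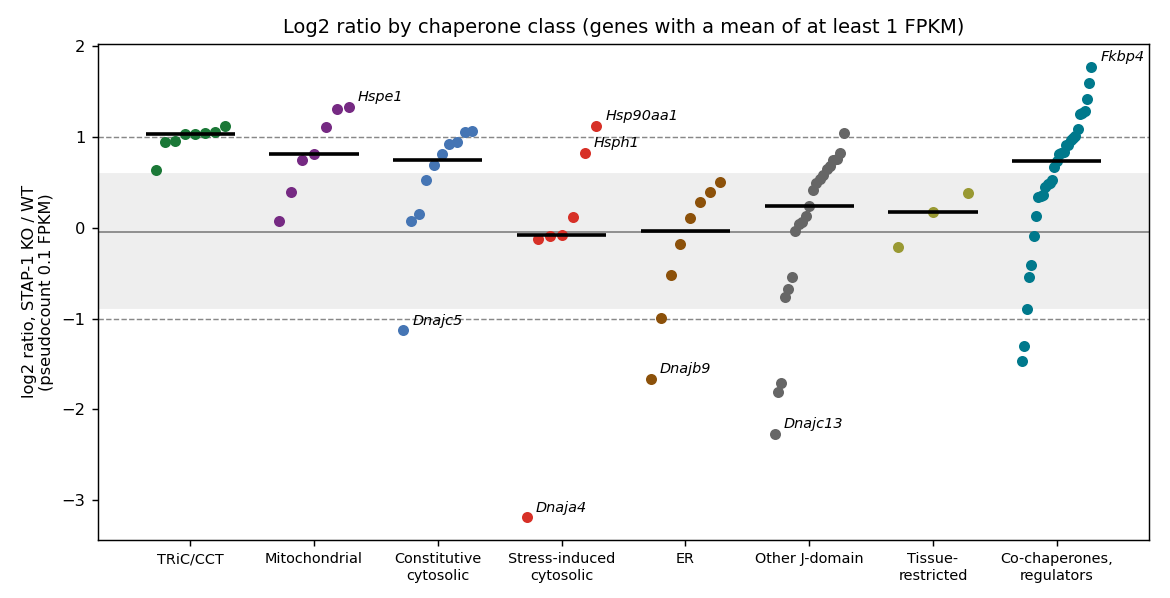
Log2 difference (STAP-1 KO over WT, 0.1 FPKM added) of each chaperone and co-chaperone whose mean reached 1 FPKM, by class, with black bars for class medians, a grey line and band for the median and quartiles of all genes at that level, and dashed lines at 2-fold. TRiC forms a tight group around 1.03, while the stress-induced class runs from -3.19 to 1.12.

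Stress-induced and constitutive cytosolic chaperones differed in their medians. Among the stress-induced list, 7 of 9 genes reached a mean of 1 FPKM, with 3 above and 4 below 0 and a median of -0.08, which became 0.02 once both libraries were set to equal FPKM totals. Among the 10 constitutive members outside TRiC, 9 were above 0 and the median was 0.75. The difference of these medians was -0.83, and -0.59 after the length correction. With 1 library per genotype it has no test.

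The inducible HSP70 genes Hspa1a and Hspa1b, the classic heat shock transcripts, were close to equal between the genotypes. Hspa1a was at 19.7 FPKM in WT and 18.6 FPKM in KO, and Hspa1b at 37.8 and 41.1 FPKM. The 95% counting interval of the log2 ratio, from the estimated reads and covering counting error only, was -0.27 to 0.11 for Hspa1a and -0.02 to 0.26 for Hspa1b. Both intervals include 0, and the log2 difference of Hspa1a, -0.08, changed sign with equal FPKM totals, as that of Hspa1b, 0.12, did after the length correction. The genes are neighbours on chromosome 17 (Hspa1a, 34969190 to 34972156; Hspa1b, 34956436 to 34959238) and share 61.7% and 55.8% of their 75-base stretches with other genes, mostly with each other, so the split of reads between them is uncertain.

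Their constitutive counterpart Hspa8, which encodes the cognate HSP70, was at 171 FPKM in WT and 354 FPKM in KO, 2.08-fold higher. The summed inducible pair therefore made up 25.2% of the FPKM of these 3 cytosolic HSP70 genes in WT and 14.4% in KO. The change in this share came from Hspa8, since the sum of Hspa1a and Hspa1b was 57.5 FPKM in WT and 59.7 FPKM in KO. Hspa8 shares 41.3% of its 75-base stretches with 13 other genes and fell below the cut-off after the length correction, at a log2 difference of 0.96.

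The cytosolic J-domain partners of HSP70 varied within both lists. Dnajb1, the J-domain protein most strongly induced by heat, was at 103 FPKM in WT and 94.6 FPKM in KO. Dnajb4, a close relative, was at 29.3 and 27.6 FPKM, with a log2 difference of -0.09 that turned to 0.36 after the length correction and was above 0 with equal totals. The constitutive Dnaja1 was at 18.7 and 33.0 FPKM and Dnaja2 at 105 and 168 FPKM, log2 differences of 0.81 and 0.69. Neither of these passed the cut-off, but Dnaja1 did after the length correction, at 1.40. Dnaja1 shares 26.2% of its 75-base stretches with 4 other genes. It also shares exon bases with Smu1, which was at 77.2 FPKM in WT and 135 FPKM in KO.

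Dnaja4, another heat-inducible partner of HSP70, had the largest difference of all members. It was at 64.0 FPKM in WT and 6.93 FPKM in KO, 9.23-fold lower, with a counting interval of the log2 ratio from -3.43 to -2.99. Within Dnaja1, Dnaja2 and Dnaja4, the class A partners of the cytosol, it made up 34.2% of the FPKM in WT and 3.33% in KO. Of its exon bases, 44.1% also belong to Wdr61, which was at 115 FPKM in WT and 205 FPKM in KO, in the opposite direction, and reads in the shared bases cannot be told apart. Its promoter stretch shown above has 2 separate pairs of heat shock units.

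Not all stress-induced members were level or lower. Hsp90aa1, the inducible cytosolic HSP90, was at 69.8 FPKM in WT and 152 FPKM in KO, 2.18-fold higher and the only one of the class past the cut-off upward. Its constitutive paralog Hsp90ab1 was at 723 and 1369 FPKM, 1.89-fold. The inducible form made up 8.798% of the pair in WT and 10.003% in KO, and the log2 differences of Hsp90aa1 and Hsp90ab1, 1.12 and 0.92, were 1.11 and 0.70 after the length correction. Hsp90aa1 shares 53.1% of its 75-base stretches with 3 other genes.

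The HSP110 exchange factors Hsph1 and Hspa4 stood between these patterns. Hsph1, the inducible one, was at 52.7 FPKM in WT and 93.5 FPKM in KO, with a log2 difference of 0.83 that lay past the cut-off after the length correction, at 1.28. Hspa4, the constitutive one, was at 97.5 and 108 FPKM. The inducible share of this pair was 35.1% in WT and 46.3% in KO, higher in KO, whereas the inducible share of the HSP70 genes was lower. The relative Hspa4l, at 43.2 and 37.4 FPKM, was placed with the tissue-restricted members and is not in this share.

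The small heat shock proteins of the stress-induced list, holdases that keep unfolded proteins soluble without ATP, were near the floor. Hspb1 was at 0.384 FPKM in WT and 0.550 FPKM in KO, and Hspb8 at 0 and 0.357 FPKM, which come to a handful of reads in either library. At this depth no difference could be read for Hspb1 and Hspb8.

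Among the other constitutive members, the ribosome-associated pair of Dnajc2 and Hspa14, which meets nascent chains as they leave the ribosome, had higher FPKM in KO. Dnajc2 was at 44.4 FPKM in WT and 93.4 FPKM in KO, 2.10-fold, and Hspa14 at 74.9 and 145 FPKM, just under the cut-off at 1.93-fold. Their log2 differences, 1.07 and 0.95, became 1.16 and 0.54 after the length correction. Dnajc7, an adaptor with binding domains for HSP70 and HSP90, was at 67.4 and 97.1 FPKM, and Dnajb6, which keeps aggregation-prone proteins soluble, at 17.8 and 18.8 FPKM, a log2 difference of 0.08 that turned to -0.05 after the length correction. Dnajb6 shares 39.5% of its 75-base stretches with 9 other genes. Dnajc5, the cysteine string protein of secretory vesicles, was the exception at 51.1 FPKM in WT and 23.3 FPKM in KO, 2.195-fold lower, and its log2 difference shrank to -0.16 after the length correction.

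The ER chaperones divided within the class. Their median was -0.04, the same as that of all genes to 2 decimals, and it turned to 0.07 with equal FPKM totals and to 0.11 after the length correction. Hspa5 (BiP), the HSP70 of the ER, was at 971 FPKM in WT and 1186 FPKM in KO, Hsp90b1 (GRP94) at 428 and 608 FPKM, and Dnajb11, a J-domain partner of BiP, at 106 and 140 FPKM. These abundant folding factors had log2 differences from 0.29 to 0.51, all within the cut-off. The median over all genes whose mean reached 100 FPKM was 0.35. Dnajc3, an inhibitor of the kinase PERK and a BiP partner, was at 40.7 and 43.9 FPKM. The 3 members with the ER stress element in their window, Hspa5, Hsp90b1 and Dnajc3, were all above 0 by less than 2-fold. So was Dnajb11, which is not among them, and after the length correction 6 of the 8 ER members were above 0.

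The remaining ER members had log2 differences below 0, with Dnajb9 past the cut-off. Dnajb9 (ERdj4), a BiP partner that keeps the stress sensor IRE1 inactive and is itself induced by the unfolded protein response, was at 36.9 FPKM in WT and 11.6 FPKM in KO, 3.19-fold lower, with a counting interval of the log2 ratio from -1.89 to -1.47. Hspa13, a microsomal HSP70 relative, was at 47.8 and 24.0 FPKM, just under the cut-off at 1.99-fold. Dnajc1 was at 10.98 and 7.65 FPKM, and Dnajc10, a disulfide reductase, at 43.9 and 38.6 FPKM. The log2 differences of Dnajc1 and Dnajc10 were -0.51 and -0.18, and both changed sign after the length correction.

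All 7 mitochondrial chaperones were above 0, with a median of 0.81. Hspd1 (HSP60) and its lid Hspe1 (HSP10), which together form the mitochondrial chaperonin, were at 112 and 114 FPKM in WT and at 243 and 287 FPKM in KO. Their folds were 2.16 and 2.52, so the partners had close folds and near-equal levels per length in WT. The genes run in opposite directions and overlap at their 5′ ends on chromosome 1 (Hspd1, 55077835 to 55088243, minus strand; Hspe1, 55088132 to 55091307, plus strand). Hspd1 shares 33.7% of its 75-base stretches with 4 other genes, and both lay at 0.89 after the length correction, within the cut-off.

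Parts of the inner membrane import machinery also differed. Dnajc15, a J-domain protein of the import motor, was at 61.2 FPKM in WT and 152 FPKM in KO, 2.48-fold higher, while its paralog Dnajc19 was level at 12.4 and 13.1 FPKM. Hspa9 (mortalin), the HSP70 that pulls proteins into the matrix, was at 199 and 333 FPKM, a log2 difference of 0.74. Dnaja3 (Tid1), its matrix partner, was at 56.8 and 74.8 FPKM, and Dnajc11, found with the cristae-organizing complex, at 38.0 and 66.7 FPKM, a log2 difference of 0.81 that lay past the cut-off after the length correction, at 1.40. The difference of Dnajc19, 0.07 with a counting interval of the log2 ratio from -0.18 to 0.33, turned to -0.15 after the length correction, which left 6 of the 7 mitochondrial members above 0.

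J-domain proteins outside these classes, 27 in number, showed no common direction. Of the 21 whose mean reached 1 FPKM, 14 were above 0 and the median was 0.24. Dnajc9, a J-domain protein that also binds histones, was at 99.0 FPKM in WT and 205 FPKM in KO, 2.07-fold higher, and fell within the cut-off after the length correction. Dnajc13 (RME-8), which works on endosomes, was at 11.1 and 2.23 FPKM, 4.99-fold lower, from a transcript of 8012 bases. Dnajc16 at 6.62 and 1.96 FPKM and Dnajb5 at 2.16 and 0.546 FPKM were also past the cut-off downward, and were named after their values were seen. Over all 39 J-domain members at that level the median was 0.13 with 25 above 0, while over the 26 members that are no J-domain proteins it was 0.93 with 23 above 0. After the length correction Dnajc15, a J-domain protein, had the largest corrected value of the 65 members at 1.89. Its bin was set by a longest annotated transcript of 6193 bases.

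Transcript length moved with the differences and is shown beside the classes. All genes were grouped into 20 bins by the length of their longest transcript. That transcript need not be the one the cells express, and the corrected values depend on it. Which transcript was expressed was not tested. The bin median fell from 0.53 at 980 to 1321 bases to -0.996 at 7775 bases and above. After the correction the TRiC median, over transcripts with a median length of 2469 bases, was 0.87, and the difference of Dnajb9 was -1.88. Dnajc13 went from -2.27 to -1.27. Over all members the median was 0.49 before and 0.42 after the correction.

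**Figure D3:**
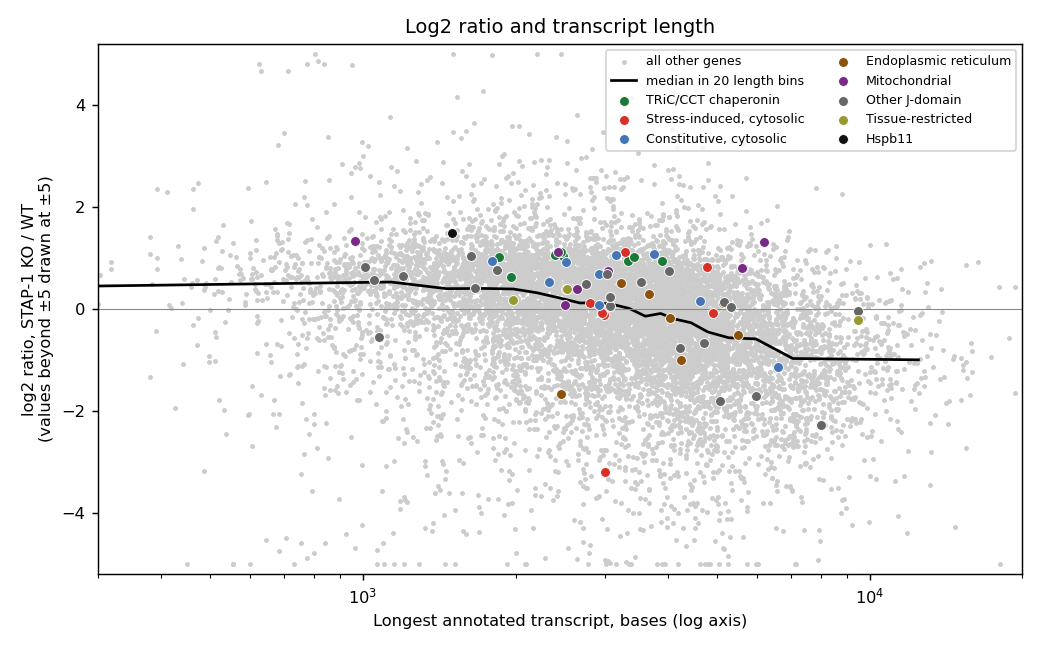
Log2 difference (STAP-1 KO over WT) against the length of the longest annotated transcript in bases on a log axis, with all other genes in grey, chaperones in colour by class, values beyond 5 or -5 drawn there, and a black line for the median in 20 length bins. The line falls to -0.996 in the longest bin, and the TRiC subunits lie above it.

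Tissue-restricted members added little RNA. Of these 12, which include testis and muscle forms, 3 reached a mean of 1 FPKM: Hspa4l at 43.2 FPKM in WT and 37.4 FPKM in KO, Hspa2 at 6.84 and 8.96 FPKM, and Hspb6 at 3.10 and 3.51 FPKM, none past the cut-off. The log2 difference of Hspa4l, whose transcript has 9479 bases, turned from -0.21 to 0.79 after the length correction, and that of Hspb6 from 0.17 to -0.22. Hspa12b at 0.341 and 1.36 FPKM and Cct6b, a testis form of a TRiC subunit, at 0.341 and 0.122 FPKM passed the cut-off at very low levels. Cct6b is counted among the lower members, but its counting interval of the log2 ratio, -4.95 to 1.32, includes 0. Hspb11 (IFT25), a protein of intraflagellar transport placed in no class, was at 3.80 FPKM in WT and 10.9 FPKM in KO. Hspa12b, Cct6b and Hspb11 were named after their values were seen. Of the 82 members, 8 were listed at 0 in both libraries (Cct8l1, Dnajc22, Dnajc5b, Dnajc5g, Hspa12a, Hspb2, Hspb3 and Hspb7), 2 in WT alone (Hspb8 and Hspb9) and 2 in KO alone (Dnajb13 and Dnajb8). None of the last 4 exceeded 0.357 FPKM in the other library.

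Co-chaperones and regulators, a list of 33 genes outside the members, mostly had log2 differences above 0. Of the 31 whose mean reached 1 FPKM, 25 were above 0 and the median was 0.74, or 0.54 after the length correction, with 8 genes of the list past the cut-off upward and 2 downward, beside 12.3% and 22.9% of all genes. Fkbp4 (FKBP52), a peptidyl-prolyl isomerase in steroid receptor complexes, was at 129 FPKM in WT and 442 FPKM in KO, a log2 difference of 1.78. Ahsa1, which stimulates the HSP90 ATPase, was at 140 and 342 FPKM, and Stip1 (HOP), which links HSP70 to HSP90, at 136 and 326 FPKM. Ptges3 (p23), which holds HSP90 closed, was at 60.3 and 122 FPKM, and Chordc1 at 70.2 and 167 FPKM. The log2 differences of these 5 genes ran from 1.01 to 1.78, and Ahsa1, Stip1 and Ptges3 fell within the cut-off after the length correction.

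Other co-chaperones extended the groups above. Trap1, the mitochondrial HSP90, was at 80.3 FPKM in WT and 171 FPKM in KO. Prefoldin, which delivers unfolded actin and tubulin to TRiC, had 5 subunits in the files, all above 0 with a median of 0.81, which became 0.41 with 4 of 5 above 0 after the length correction, and Pfdn4 was past the cut-off at 15.5 and 41.6 FPKM. Trap1 and Pfdn4 were within the cut-off after the length correction. Fkbp5 (FKBP51), the glucocorticoid-inducible relative of Fkbp4, went the other way at 73.1 and 29.6 FPKM, and Bag6, which escorts tail-anchored membrane proteins, was at 21.3 and 7.64 FPKM. The paralogs Fkbp4 and Fkbp5 thus differed in opposite directions. Cdc37 and Unc45a, co-chaperones of HSP90 named after their values were seen, did not pass the cut-off, with Cdc37 at 86.5 and 154 FPKM and Unc45a at 24.9 and 13.4 FPKM. After the length correction Cdc37, with a longest annotated transcript of 7851 bases, lay past it at 1.83, beside Fkbp4 at 1.66. Clpb and St13, named likewise, also passed it, at 1.42 and 1.11.

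The heat shock factors themselves were at modest levels. Hsf1, the main activator of the stress-induced genes, was at 33.0 FPKM in WT and 42.1 FPKM in KO, and Hsf2 at 0.497 and 1.70 FPKM, the latter past the cut-off on few estimated reads. Among proliferation genes, 5 of 6 had higher FPKM in KO, with Pcna at 51.5 and 104 FPKM, Mcm5 at 97.4 and 209 FPKM and Ccnb1 at 57.8 and 120 FPKM, while Mki67 was at 17.4 and 7.89 FPKM. Their part in the chaperone differences was not tested.

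**Figure D4:**
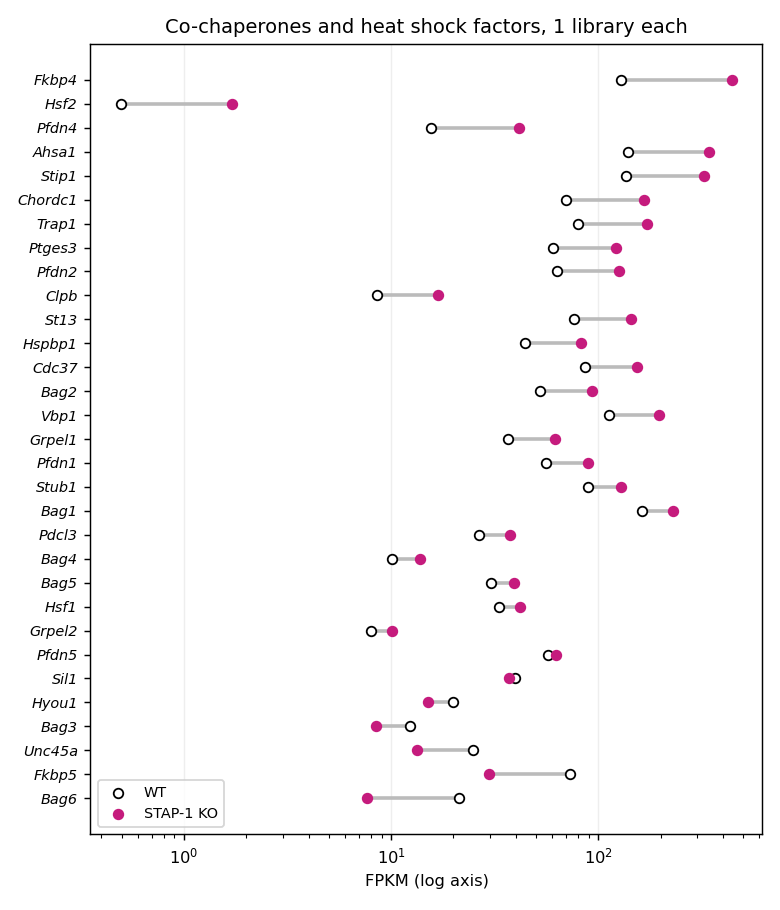
FPKM of the co-chaperones and regulators in the WT and the STAP-1 KO library on a log axis, with 1 point per library. Fkbp4 has the largest upward difference, from 129 to 442 FPKM, and Bag6 and Fkbp5 lie lower in KO.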

How the data were processed

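The authors made LSK-sorted RNA into libraries with SMART-Seq v4 and Nextera XT (75-base single reads), aligned them with TopHat 2.0.13 and Bowtie2 2.2.3, and deposited FPKM per gene from Cuffnorm 2.2.1, 1 column per library. SAMtools is given as 1.0 in the methods and 0.1.19 in the processing notes. From the deposited FPKM, log2 differences (0.1 added), 2-fold calls, class medians and length-corrected values (20 length bins) were computed in Python (3.11.15, with pandas 2.3.3, scipy 1.17.1 and numpy 2.4.6) and drawn with matplotlib 3.10.9, and the calculations were tested on simulated data. GENCODE M21 (GRCm38) gave coordinates and lengths for 20911 of 23284 symbols and all 82 members. Depth was estimated from steps between low FPKM values, of which 41.6% (WT) and 44.9% (KO) were whole within 0.01 reads, so no count test was run. The members and lists were chosen with earlier results of these data known. Named genes were all members of the TRiC, stress-induced, constitutive, ER and mitochondrial classes whose mean reached 1 FPKM, other J-domain and tissue-restricted members and co-chaperones past the cut-off whose mean reached 5 FPKM, and Hsf1 and Hsf2. Hspb11, in none of these classes, was held to the same threshold and added after its values were seen. Other members are given outside the rule, among them Hspa4l, Hspa2, Hspb6, Hspb1 and Hspb8. Alternatives changed the scaling, pseudocount, filters, cut-off and length correction. The summed level of the B cell markers is not reported here.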

Additional observations from a re-analysis of the deposited data

How the results depend on the processing

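No paired analysis was possible because each genotype had 1 library, and no replicate could be left out. With a 1.5-fold cut-off, 30 members were higher and 11 lower, beside 25.6% and 32.8% of all genes, against 14 and 7 at 2-fold. The length correction gave 10 and 8 of 70, beside 12.2% and 19.7%, which brings the higher members nearer to the share of all genes. Equal totals gave 18 and 7 of 70, beside 15.1% and 20.8%, and a floor of 1 FPKM gave 13 and 5 of 63, beside 10.6% and 19.3%. With the median of all genes set to 0 there were 14 and 7 of 70, beside 13.3% and 22.1%, and with every gene above 0 in both libraries 14 and 7 of 70, beside 12.9% and 24.5%. Of the settings chosen after seeing the data, a minimum of 10 estimated reads gave 14 and 6 of 66, beside 12.4% and 24.6%, and the removal of members sharing 25% or more of their 75-base stretches gave 11 and 6 of 59, beside the unchanged shares of all genes. With equal FPKM totals, which moves every gene by 0.10, the medians were 0.60 for all members, 1.13 for TRiC, 0.025 for the stress-induced class (reversed), 0.85 for the constitutive, 0.067 for the ER (reversed), 0.91 for the mitochondrial, 0.35 for the other J-domain class and 0.84 for the co-chaperones. With the median of all genes set to 0, a shift of 0.04, the ER median was 0.0063 (reversed). With the length correction the medians were 0.87 for TRiC, 0.58 for the constitutive class, 0.11 for the ER (reversed) and 0.54 for the co-chaperones, and the stress-induced minus constitutive difference was -0.59. A pseudocount of 1 gave 0.39 for all members, a mean minimum of 5 FPKM gave 0.46 for the other J-domain class, and taking every gene above 0 in both libraries, with no minimum mean, gave 0.021 for the stress-induced class (reversed). The cause of these moves was not tested beyond the constructions themselves. Of the 54 named genes, 27 were past the cut-off. The length correction took 14 of them within it and brought 4 others past it (Cct7, Dnaja1, Dnajc11 and Hsph1), equal totals brought 4 past it (Cct3, Cct7, Hsp90ab1 and Hspa14), and none of the 27 changed sign under either scaling, the pseudocount of 1 or the length correction. Of those within the cut-off, 6 changed sign with the length correction (Dnajc1, Dnajc10, Dnajb6, Dnajc19, Dnajb4 and Hspa1b) and 2 with equal totals (Dnajb4 and Hspa1a).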
